A study of Mus musculus with 12 samples.

Results

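The glutathione transferases described here are 10 genes of 4 soluble classes and of the microsomal family, namely Gsta2, Gsta3 and Gsta4 of the alpha class, Gstm1, Gstm2 and Gstm5 of the mu class, Gstp1 of the pi class, Gsto1 of the omega class, and the membrane proteins Mgst1 and Mgst3. They were chosen by symbol, with earlier results of these data known, and all 10 were found among the 55385 genes of the deposited count tables. The libraries were made from satellite cells, which are the resident stem cells of muscle fibres, taken fresh from hindlimb muscle of C57BL/6J mice and frozen at once. The groups were 3 female and 3 male mice whose genotype label is Keap1 knockout (KO), and 3 female and 3 male mice labelled "Keap1 heterogeneous", which the sample names call Hetz and which was read as heterozygous. Each library is 1 animal and is called here by its animal number. The Hetz animals also carry a changed Keap1 genotype by their label, no animal was labelled wild type, and the promoter or Cre line behind the KO, the allele and the age of the animals are not given in the sources used here. The stated purpose of the study was to learn why signalling through KEAP1 and NRF2 governs the upkeep and activation of these cells differently in females and males.

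Glutathione transferases join the thiol of reduced glutathione to electrophilic compounds, among them products of lipid peroxidation and reactive drug metabolites, and the conjugates are then pumped out of the cell and trimmed to mercapturic acids. The soluble classes are named by Greek letters, while the microsomal enzymes belong to an unrelated membrane family that also holds enzymes of leukotriene and prostaglandin synthesis. KEAP1 presents the transcription factor NRF2 for degradation, and in mouse tissues several alpha, mu and pi class genes are known to be switched on when NRF2 accumulates, through antioxidant response elements near their start sites.

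The sequences of 5 upstream windows are shown because they belong to the genes on which the comparisons turn. They are Gstp1 and its near copy Gstp2, a pair that shares much of its sequence, Gstm1 and Gstm5, the mu class genes with the largest and the smallest female change among the 3 members of that class, and Mgst1, the microsomal enzyme that passed the test in both sexes. Each window holds the 250 bases before the start site on the gene's own strand, read 5′ to 3′ from RefSeq on GRCm38.p6. Capitals mark a match to TGACNNNGC, the core of the antioxidant response element, or to TGANTCAGC, a related form that was added after the sequences had been seen, each searched on both strands. The windows are chr19:4037913-4038162 (Gstp1, minus strand), chr19:4042222-4042471 (Gstp2, minus strand), chr3:108017974-108018223 (Gstm1, minus strand, the first of 2 listed starts), chr3:107895604-107895853 (Gstm5, plus strand) and chr6:138140277-138140526 (Mgst1, plus strand, the first of 2 listed starts).
Gstp1: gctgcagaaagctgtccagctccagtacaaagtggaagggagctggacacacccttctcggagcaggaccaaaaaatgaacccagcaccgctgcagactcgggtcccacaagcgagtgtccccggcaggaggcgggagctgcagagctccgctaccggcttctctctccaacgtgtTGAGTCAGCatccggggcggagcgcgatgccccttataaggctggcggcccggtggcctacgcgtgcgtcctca
Gstp2: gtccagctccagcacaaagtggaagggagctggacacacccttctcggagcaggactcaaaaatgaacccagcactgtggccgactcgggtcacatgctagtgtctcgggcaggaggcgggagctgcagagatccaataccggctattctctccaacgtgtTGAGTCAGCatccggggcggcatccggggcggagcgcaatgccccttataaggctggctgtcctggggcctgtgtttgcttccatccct
Gstm1: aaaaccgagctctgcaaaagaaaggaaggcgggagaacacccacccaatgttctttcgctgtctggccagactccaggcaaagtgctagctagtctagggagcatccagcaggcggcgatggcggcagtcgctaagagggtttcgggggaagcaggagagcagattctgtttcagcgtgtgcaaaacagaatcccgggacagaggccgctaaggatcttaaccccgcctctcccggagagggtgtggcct
Gstm5: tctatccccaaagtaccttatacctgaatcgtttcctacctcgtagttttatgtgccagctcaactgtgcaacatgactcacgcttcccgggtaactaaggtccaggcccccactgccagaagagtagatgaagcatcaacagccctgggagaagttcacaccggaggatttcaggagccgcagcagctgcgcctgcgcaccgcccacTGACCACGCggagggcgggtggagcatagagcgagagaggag
Mgst1: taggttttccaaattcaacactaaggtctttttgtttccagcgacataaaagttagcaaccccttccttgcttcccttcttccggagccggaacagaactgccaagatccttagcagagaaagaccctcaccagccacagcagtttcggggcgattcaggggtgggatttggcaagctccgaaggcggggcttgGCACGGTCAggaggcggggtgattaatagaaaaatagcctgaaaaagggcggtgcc

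The promoter table held 9 of the 10 genes, all but Gsta4. TGACNNNGC stood in the windows of 3 of them, at 121 bases before the start of Gsta3, 42 bases before that of Gstm5 and 56 bases before that of Mgst1, against 11.5% of the 27025 genes of the table and 10.2% of its 32851 windows of the same length. TGANTCAGC stood in 1 member, 74 bases before the start of Gstp1, and 89 bases before that of Gstp2, against 1.17% of all genes and 1.02% of all windows. As that form was added after the sequences had been seen, its count beside these shares is no test. A window could match both forms at 1 place, and none of these windows did. The windows of Gstp1 and Gstp2 were identical at 78.1% of aligned positions, the highest value among the pairs aligned. The Gstm1 window had neither match, and Gstm1 was higher in KO, as described below. The Gstm5 window had 1 match, and Gstm5 passed no test. Only 250 bases before each listed start were searched, so elements elsewhere would be missed. A link between matches and expression was not tested.

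The 12 libraries held 13042039 to 19273245 counted fragments, with 19833 to 22602 genes detected and 2.2 to 2.98% of counts from mitochondrial transcripts. Keap1 itself, counted over all of its exons, had 11.9, 13 and 11 CPM (counts scaled to library size) in female KO libraries, against 9.56, 7.18 and 7.95 CPM in female Hetz libraries, and 6.30, 7.74 and 7.70 CPM in male KO libraries, against 9.78, 5.33 and 8.08 CPM in male Hetz libraries. Neither difference passed the test (adjusted p = 0.186 in females and 0.936 in males, edgeR with Benjamini-Hochberg adjustment), and the sum over exons does not check a deletion of part of the gene. The deleted exons are not named in the labels, and 10.9% of the exonic bases of Keap1 overlap Gm16754. The satellite cell markers Pax7 and Myf5 were present in every library, Pax7 at 12.1 to 13 CPM in female KO, 10.7 to 15.5 CPM in female Hetz, 10.1 to 22.4 CPM in male KO and 17.4 to 30.0 CPM in male Hetz. Because whole samples were sequenced, fewer cells of a type and less RNA per cell cannot be told apart in any value below. Satellite cell markers summed to 7733 to 9994 CPM in female KO, against 11301 to 12889 CPM in female Hetz, with 1 of 10, Cd34, past the test and lower in KO (log2 fold change -0.96, adjusted p = 0.00610), and to 16496 to 18066 CPM in male KO, against 14332 to 17013 CPM in male Hetz, with 0 of 10 past it. Leukocyte markers summed to 32.3 to 51.4 CPM in female KO, against 81.3 to 114 CPM in female Hetz, with Cd74 (-1.43, adjusted p = 0.00389) and Lyz2 (-1.20, adjusted p = 0.0392) lower in KO, and to 51.3 to 66.6 CPM in male KO, against 27.6 to 81.8 CPM in male Hetz. Over the 12 libraries Pdgfra of fibro-adipogenic progenitors ran from 1.75 to 4.72 CPM, the endothelial Pecam1 from 6.84 to 41.5 CPM and the leukocyte gene Ptprc from 0.229 to 3.28 CPM. Markers of fibro-adipogenic progenitors summed to 2802 to 3262 CPM in female KO, against 2463 to 4799 CPM in female Hetz, and to 1160 to 1705 CPM in male KO, against 956 to 2300 CPM in male Hetz, with overlap in both sexes. None of the 8 leukocyte markers was at 0 in all libraries of a group, and none of the members of the lists for 7 other cell types passed the test in either sex. What part these shifts have in the female results was not tested.

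The levels of the transferases per length differed by several orders of magnitude. On the scale of FPKM, which divides CPM by the exonic length in kilobases, Gstm1 stood first in all 4 groups, with 1101 ± 254.9 FPKM in female KO and 374 ± 54.8 FPKM in female Hetz, and 1041 ± 279 FPKM in male KO and 484 ± 36.6 FPKM in male Hetz (SD, n = 3 each). Gstp1 stood second everywhere, with 465 ± 122 FPKM in female KO and 105 ± 21.8 FPKM in female Hetz, and 240 ± 58.7 FPKM in male KO and 106 ± 21.6 FPKM in male Hetz. The ranges of these 2 genes did not meet in any group. Gstm2 held the next rank in each group by its mean, with 63.6 FPKM in female KO, 47.2 in female Hetz, 147 in male KO and 63.6 in male Hetz. In female Hetz its range overlapped that of Gsto1.

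Below these, Gsto1, Mgst1 and Gstm5 held ranks 4 to 6 in an order that varied by group. In female KO and male KO the neighbours Gsto1 and Mgst1 overlapped in range, as did Mgst1 and Gstm5 in female KO and Gsto1 and Gstm5 in male KO. In both Hetz groups Mgst1 stood sixth, below Gstm5 and apart from it, at 20.1 ± 3.24 FPKM in females and 13.5 ± 1.56 FPKM in males. Gsta4 was seventh in each group by its mean, but its range met that of Gstm5 in female KO and that of Mgst3 in female Hetz, where the means were 2.40 FPKM for Gsta4 and 2.38 FPKM for Mgst3. Mgst3, Gsta2 and Gsta3 filled the last 3 ranks, at 1.18 to 1.75 FPKM on average in female KO, where all 3 overlapped with their neighbours, and Gsta2 and Gsta3 were at or below 0.0206 FPKM on average in both Hetz groups.

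**Figure D1:**
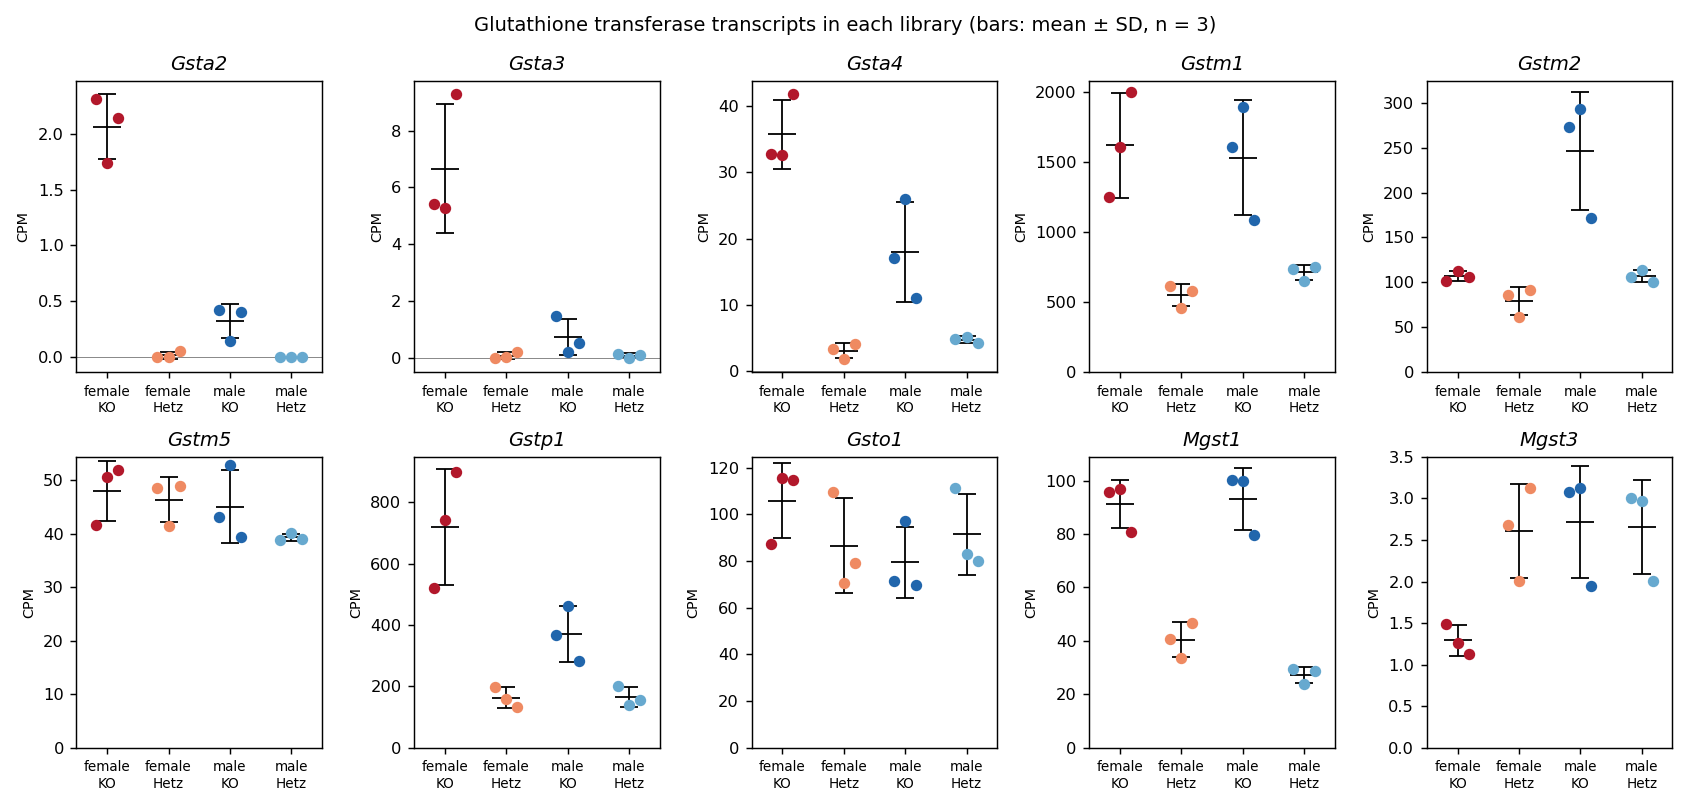
Level of each transferase in CPM (vertical axes) in every library, 1 panel per gene, with female KO, female Hetz, male KO and male Hetz from left to right; points are animals, the wider bars are means and the whiskers are SD (n = 3). Gsta4, Gstm1, Gstm2, Gstp1 and Mgst1 show KO points wholly above Hetz points in both sexes, as do Gsta2 and Gsta3 at low counts. Gstm5 and Gsto1 show overlapping points. Mgst3 is lower in KO only among females, where the difference did not pass the test.

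The sum over the 10 genes was 1798 ± 389 FPKM in female KO and 631 ± 87.9 FPKM in female Hetz, and 1565 ± 397 FPKM in male KO and 750 ± 54.5 FPKM in male Hetz (SD, n = 3 each). Within that sum Gstm1 took much the same share in KO and Hetz of each sex, 61.1 ± 1.16% in female KO and 59.3 ± 1.85% in female Hetz, and 66.3 ± 1.21% in male KO and 64.6 ± 2.48% in male Hetz. The share of Gstp1 was 25.7 ± 1.45% in female KO and 16.8 ± 3.04% in female Hetz, with ranges that did not meet, and 15.4 ± 0.706% in male KO and 14.1 ± 1.95% in male Hetz, with ranges that did. Gstm2 went the other way among females, with 3.64 ± 0.708% in KO and 7.47 ± 0.918% in Hetz, while in males it held 9.35 ± 0.562% in KO and 8.52 ± 1.13% in Hetz. Gsta4 made up 1.60 ± 0.224% in female KO and 0.375 ± 0.115% in female Hetz, and 0.884 ± 0.161% in male KO and 0.499 ± 0.0765% in male Hetz. The sizes of these shares were not corrected for uncounted shared reads, which affect the genes unequally.

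**Figure D2:**
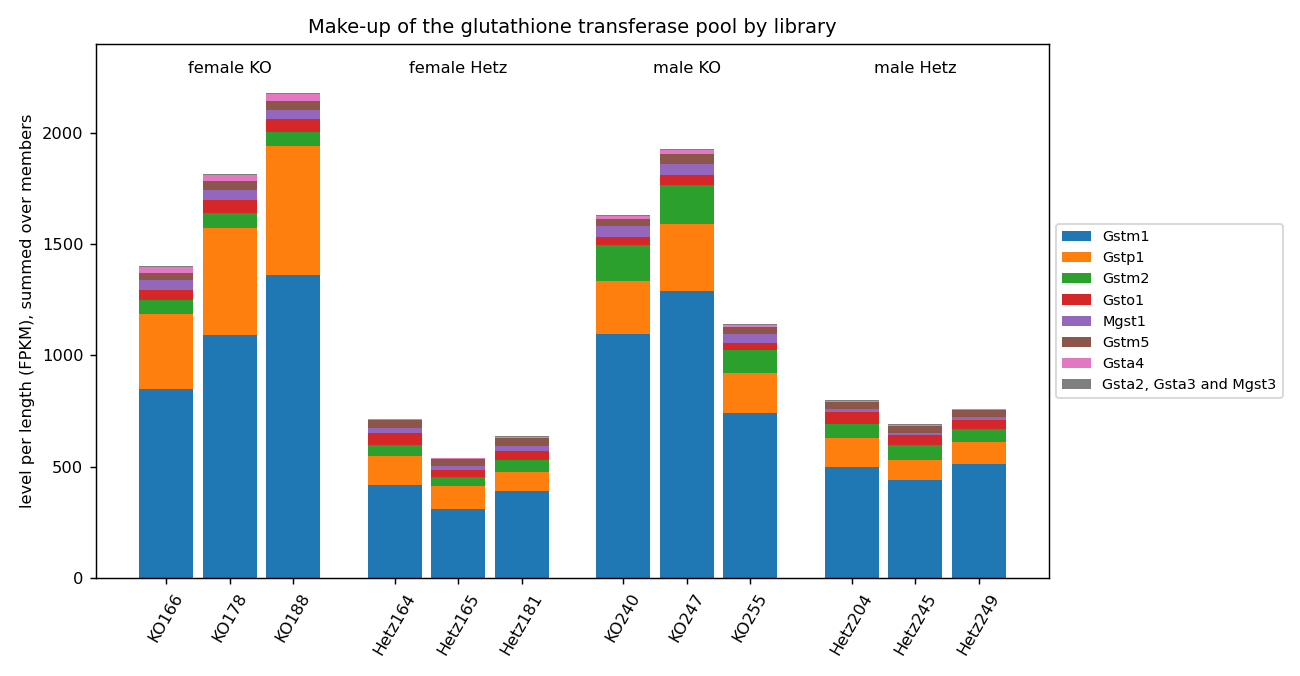
Summed level of the 10 transferases in FPKM (vertical axis), stacked by gene, for each library, with female KO, female Hetz, male KO and male Hetz from left to right. The KO stacks reach 1402 to 2179 FPKM in females and 1139 to 1925 FPKM in males, above the Hetz stacks of 540 to 715 FPKM in females and 691 to 798 FPKM in males, and Gstm1 forms the largest segment of each.

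To ask how KO and Hetz cells differed within each sex, each count table was fitted as a whole with the quasi-likelihood test of edgeR, and a gene was called at an adjusted p under 0.05 (Benjamini-Hochberg over all genes tested). Among females 6 of 10 transferases were called, all higher in KO, namely Gsta2, Gsta3, Gsta4, Gstm1, Gstp1 and Mgst1, against 2.27% of all 14036 genes called and 1.29% called higher. Among males 5 of the 8 that could be tested were called, all higher in KO, namely Gsta4, Gstm1, Gstm2, Gstp1 and Mgst1, against 0.861% of all 13361 genes called and 0.704% called higher. No transferase was called lower in either sex. The median log2 fold change was 1.37 over the 10 genes tested in females, beside 0.00 over all genes, and 1.14 over the 8 tested in males, beside 0.01 over all genes. Because the 10 genes were chosen with earlier results of these data known, these counts and medians are descriptions and no independent support. Gsta2 and Gsta3 passed the filter on low counts only through the female KO libraries, where they are high, so the female count and median are no independent sign of direction for these 2. Without them, 4 of the 8 remaining transferases were called in females, with a median log2 fold change of 0.80, and 5 of the same 8 in males, with a median of 1.14.

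**Figure D3:**
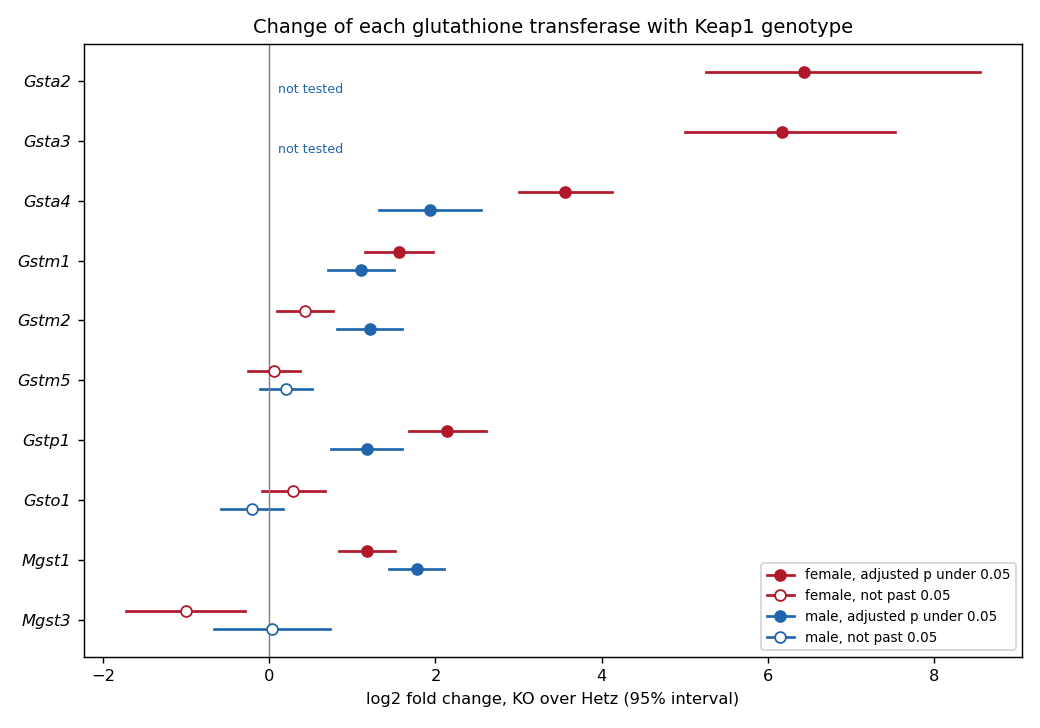
Log2 fold change of KO over Hetz (horizontal axis) with 95% intervals for each transferase, females and males; filled points mark an adjusted p under 0.05. Gsta2, Gsta3 and Gsta4 have the largest female changes. Among the genes called in males, Mgst1 and Gstm2 have larger male than female values. The intervals of Gstm5 and Gsto1 include 0 in both sexes.

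Of the alpha class, Gsta4 (chr9:78182774-78209349, plus strand, GRCm38 as for all positions), which conjugates the lipid peroxidation product 4-hydroxynonenal, was the member with enough counts for both sexes. It had 32.8, 32.6 and 41.8 CPM in the female KO libraries KO166, KO178 and KO188, against 3.33, 1.81 and 3.98 CPM in the female Hetz libraries Hetz164, Hetz165 and Hetz181. Every female KO value was far above every female Hetz value, an 11.8-fold difference (log2 fold change 3.56 ± 0.26 SE, 95% interval 3.0 to 4.12, edgeR adjusted p = 7.16e-06). In males it had 17, 26 and 11 CPM in KO240, KO247 and KO255, against 4.85, 5.10 and 4.19 CPM in Hetz204, Hetz245 and Hetz249. The male groups did not overlap either, with KO255 the lowest KO value, and the difference was 3.82-fold (log2 fold change 1.93 ± 0.28 SE, interval 1.32 to 2.55, adjusted p = 0.00485). Without Hetz249 the male call was lost at an adjusted p of 0.0691. No stretch of 50 bases of its longest transcript was shared with another gene.

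Gsta3 (chr1:21240589-21265661, plus strand), an alpha class enzyme that in mouse liver detoxifies aflatoxin epoxide, was close to the limit of detection outside female KO. Its counts summed to 366 in female KO libraries, against 0, 1 and 4 in the female Hetz libraries, and were 21, 3 and 8 in male KO libraries, against 2, 0 and 2 in male Hetz libraries. In CPM this was 5.43, 5.28 and 9.27 in female KO, against 0 to 0.212 in female Hetz. The KO libraries lay above the Hetz libraries in both sexes, and 1 male library, KO240, held 21 of the 32 male KO counts. The summed counts of females gave a ratio of 76.7 (interval 32.6 to 238, counting error only), and Gsta3 was called in females (adjusted p = 6.27e-05). The male sums gave 9.05 (interval 3.21 to 35.2, counting error only), and the gene did not pass the male filter on low counts. Without that filter its male adjusted p was 0.0686.

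Gsta2, another alpha class enzyme (chr9:78331018-78355788, minus strand), showed 48, 29 and 38 counts in female KO libraries, against 0, 0 and 1 in female Hetz libraries. It was called in females (adjusted p = 0.000251), and the ratio of the summed counts, 115 in KO and 1 in Hetz, was 121 with an interval of 21.2 to 4803 for counting error. In males there were 6, 2 and 6 counts in KO libraries, against 0 in each Hetz library. Against a floor of 3 counts over the whole Hetz group the ratio was 5.28 in males and 40.2 in females, and the lower limit that counting error allows in males was 3.75. The male libraries thus did not overlap, but Gsta2 was too low for the male test, and without the filter its adjusted p was 0.127. Of the 50-base stretches of its longest transcript 64.2% also occur in other genes, most often in Gsta1, Gm10639 and Gm3776. Its counts, from which reads with several places were left out, are therefore uncertain. Gsta1 was called in females as well, with 37, 31 and 17 counts in KO libraries, against 2, 1 and 4 in Hetz libraries (adjusted p = 0.00574). It too passed the filter through the KO libraries only, and 89.7% of its 50-base stretches occur in other genes.

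The mu class genes lie side by side on chromosome 3 in the order Gstm5, Gstm7, Gstm6, Gstm3, Gstm2, Gstm1 and Gstm4, and they did not change alike. Gstm1, the highest of the 10 by FPKM (chr3:108012255-108017973, minus strand), had 1254, 1608 and 2004 CPM in female KO libraries, against 616, 461 and 576 CPM in female Hetz libraries. All female KO values were above all female Hetz values, 2.95-fold on average (log2 fold change 1.56 ± 0.19 SE, interval 1.15 to 1.97, adjusted p = 0.000597). In male libraries it had 1612, 1898 and 1089 CPM in KO, against 734, 653 and 755 CPM in Hetz. These groups were apart too, and the difference was 2.15-fold (log2 fold change 1.11 ± 0.18 SE, interval 0.71 to 1.5, adjusted p = 0.0131). The male call was lost on leaving out Hetz204, Hetz245, Hetz249 or KO240, at adjusted p values of 0.0839 to 0.122. Gstm1 shares 23.1% of its 50-base stretches with other genes, most often with Gstm2-ps1, Gstm3 and Gm8834.

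Gstm2 (chr3:107981702-107986453, minus strand), the neighbour of Gstm1, was called in males only, but the sexes were not shown to differ in it. It had 274, 294 and 171 CPM in male KO libraries, against 105, 114 and 101 CPM in male Hetz libraries, with no overlap (2.31-fold, log2 fold change 1.21 ± 0.18 SE, interval 0.82 to 1.60, adjusted p = 0.00549). Leaving out Hetz204, Hetz249 or KO240 ended the male call, with adjusted p values of 0.0635 to 0.0900. Female values were 102, 113 and 106 CPM in KO, against 85.5, 61.4 and 91.0 CPM in Hetz. These did not overlap, yet the difference did not pass the test (log2 fold change 0.43 ± 0.16 SE, interval 0.09 to 0.77, adjusted p = 0.184). Gstm2 shares 9.36% of its 50-base stretches with other genes, Gstm1 among them.

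Gstm5 (chr3:107895821-107898686, plus strand), at the other end of the cluster and on the other strand of DNA, passed no test in either sex. It had 41.7, 50.6 and 51.9 CPM in female KO libraries, against 48.6, 41.5 and 49 CPM in female Hetz libraries, and 43.2, 52.8 and 39.4 CPM in male KO libraries, against 38.9, 40.2 and 39 CPM in male Hetz libraries. The groups overlapped in females and, by the narrow margin of KO255, in males. The intervals of the log2 fold change were -0.26 to 0.37 in females (adjusted p = 0.882) and -0.11 to 0.51 in males (adjusted p = 0.645). Of its exonic bases 13.9% overlap 4933431E20Rik, and counting ignored strand.

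Ratios of counts within a library show the unequal change inside the cluster without any scaling between libraries. Gstm1 over Gstm5 was 30.1, 31.8 and 38.6 in female KO, against 12.7, 11.1 and 11.8 in female Hetz, and 37.3, 36 and 27.7 in male KO, against 18.9, 16.3 and 19.4 in male Hetz. Gstm1 over Gstm2 was 12.3, 14.3 and 18.9 in female KO, against 7.21, 7.51 and 6.33 in female Hetz. In males that second ratio overlapped, with 5.89, 6.46 and 6.36 in KO, against 6.96, 5.72 and 7.5 in Hetz. Of the other genes of the cluster, Gstm4 was called in females (log2 fold change 1.09, adjusted p = 0.0119) but not in males (0.80, adjusted p = 0.284), where KO255 at 5.36 CPM lay below the Hetz values of 5.50 to 6.01 CPM. Gstm6 (0.80 in females, adjusted p = 0.276, and 1.23 in males, adjusted p = 0.0934) and Gstm7 (0.48, adjusted p = 0.435, and 0.54, adjusted p = 0.458) were not called. Gstm3 was too low to test, with 6 counts over the female KO libraries and 4 over the male KO libraries, against 0 in every Hetz library.

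**Figure D4:**
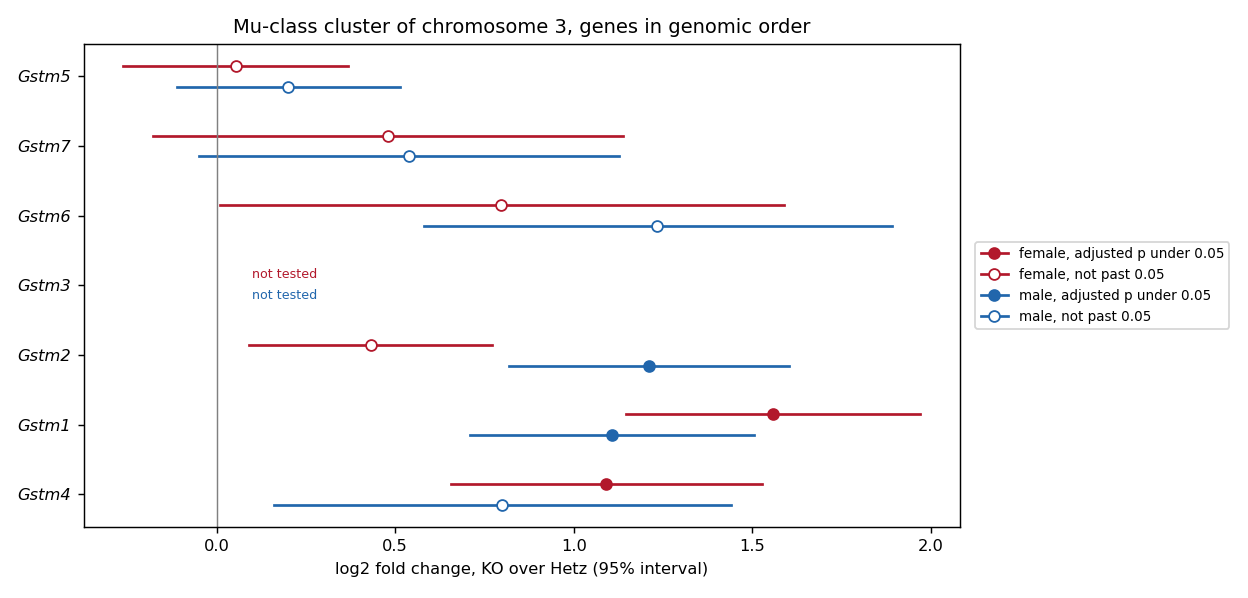
Log2 fold change of KO over Hetz with 95% intervals (horizontal axis) for the genes of the mu cluster on chromosome 3, in their order along the chromosome (from top to bottom, not to scale), for females and males; filled points mark an adjusted p under 0.05. Gstm1 is called in both sexes, Gstm2 in males and Gstm4 in females, and the intervals of Gstm5 include 0; Gstm3 was not tested.

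Gstp1 (chr19:4035407-4037985, minus strand), the pi class enzyme, which also binds and restrains the kinase JNK, had 521, 741 and 898 CPM in female KO libraries, against 199, 159 and 131 CPM in female Hetz libraries. The groups were well apart, with a 4.42-fold difference (log2 fold change 2.14 ± 0.21 SE, interval 1.68 to 2.61, adjusted p = 0.000112). Male libraries had 368, 463 and 281 CPM in KO, against 202, 138 and 154 CPM in Hetz. These did not overlap (2.25-fold, log2 fold change 1.17 ± 0.20 SE, interval 0.74 to 1.60, adjusted p = 0.0159), and the male call was lost without Hetz245, Hetz249 or KO240, at adjusted p values of 0.0774 to 0.155.

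The Gstp1 counts cannot be read apart from those of its copies. Of its 50-base stretches 62.3% also occur in Gstp2 or Gstp-ps, and 52.8% of its 100-base stretches do, so the counts come from reads that reach its unshared bases. Gstp2 had 44.9, 68.8 and 131 CPM in female KO, against 14.5, 12.1 and 10.1 CPM in female Hetz (log2 fold change 2.73, adjusted p = 0.00455), and 33.4, 38.0 and 27.9 CPM in male KO, against 13.1, 11.3 and 11.8 CPM in male Hetz (1.46, adjusted p = 0.000700). Both groups of Gstp2 were apart in each sex. Gstp1 counts exceeded Gstp2 counts 6.88- to 11.6-fold in female KO and 13- to 13.7-fold in female Hetz, ranges that did not meet, and 10.1- to 12.2-fold in male KO and 12.2- to 15.4-fold in male Hetz. The adjacent pseudogene Gstp-ps was called in females (2.37, adjusted p = 0.00697) and not in males (1.40, adjusted p = 0.0648).

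Gsto1 (chr19:47854970-47864790, plus strand), the omega class enzyme, which carries a cysteine in its active site and reduces dehydroascorbate, passed no test. It had 87.5, 116 and 115 CPM in female KO libraries, against 110, 70.8 and 79.3 CPM in female Hetz libraries, and 71.6, 97.0 and 69.6 CPM in male KO libraries, against 111, 82.8 and 80.2 CPM in male Hetz libraries. The groups overlapped in both sexes. In females the log2 fold change was 0.29 ± 0.18 SE (interval -0.09 to 0.67, adjusted p = 0.416) and in males it was -0.20 ± 0.17 SE (interval -0.58 to 0.17, adjusted p = 0.700).

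Mgst1 (chr6:138140316-138156755, plus strand) is a membrane transferase of the endoplasmic reticulum and outer mitochondrial membrane with peroxidase activity towards lipid hydroperoxides. Mgst1 was higher in KO than in Hetz libraries of both sexes. It had 95.8, 97.0 and 80.9 CPM in female KO libraries, against 40.8, 33.7 and 46.8 CPM in female Hetz libraries. In males it had 100.1, 99.7 and 79.5 CPM in KO libraries, against 29.5, 23.7 and 28.6 CPM in Hetz libraries. Neither pair of groups overlapped, and the difference was 2.26-fold in females (log2 fold change 1.17 ± 0.15 SE, interval 0.84 to 1.51, adjusted p = 0.00115) and 3.42-fold in males (1.78 ± 0.15 SE, interval 1.45 to 2.11, adjusted p = 5.58e-05). Among the 5 transferases called in males, Mgst1 was the one that stayed called under all 11 alternatives tried, with a highest adjusted p of 0.00232.

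Mgst3 (chr1:167371966-167393841, minus strand), a related membrane enzyme that can make leukotriene C4, was low everywhere. It had 1.49, 1.26 and 1.12 CPM in female KO libraries, against 2.69, 2.0 and 3.13 CPM in female Hetz libraries, and 3.08, 3.13 and 1.94 CPM in male KO libraries, against 3.0, 2.97 and 2.01 CPM in male Hetz libraries. It was the one transferase whose female KO values all lay below the female Hetz values, but the difference did not pass the test (log2 fold change -1.0 ± 0.33 SE, interval -1.72 to -0.29, adjusted p = 0.143). In males the groups overlapped (0.03 ± 0.32 SE, interval -0.67 to 0.74, adjusted p = 0.984). The ratio of Mgst1 to Mgst3 counts was 64.3, 77.0 and 72.0 in female KO, against 15.2, 16.9 and 14.9 in female Hetz, and 32.5, 31.9 and 41.0 in male KO, against 9.82, 7.96 and 14.3 in male Hetz.

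Over the 8 transferases other than Gsta2 and Gsta3, female KO libraries lay wholly above Hetz in 5 (Gsta4, Gstm1, Gstm2, Gstp1 and Mgst1) and wholly below in 1 (Mgst3), against 11.9% and 10.4% of all genes tested. Male KO libraries lay wholly above Hetz in the same 5 and below in none, against 9.24% and 7.76%. Within male KO, KO255 had the lowest value of the 3 animals for 8 of the 10 genes, all but Gsta2 and Gsta3, where KO247 was lowest.

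Whether the female and the male change differ was tested as a contrast over all 12 libraries. None of the 10 transferases passed (edgeR with Benjamini-Hochberg adjustment), against 0.00677% of 14772 genes, which is 1 gene. At an unadjusted p under 0.05 there were 5 of 10, Gsta4, Gstm2, Gstp1, Mgst1 and Mgst3, against 12.4% of all genes, and limma voom called 0, DESeq2 called 1 and edgeR without the filter on low counts called 3. The female minus male difference in log2 fold change was 1.63 ± 0.42 SE for Gsta4 (interval 0.75 to 2.51, adjusted p = 0.157) and 0.98 ± 0.32 SE for Gstp1 (interval 0.31 to 1.65, adjusted p = 0.245). It was -0.78 ± 0.26 SE for Gstm2 (interval -1.32 to -0.23, adjusted p = 0.252), -0.60 ± 0.22 SE for Mgst1 (interval -1.06 to -0.14, adjusted p = 0.287) and -1.03 ± 0.45 SE for Mgst3 (interval -1.99 to -0.08, adjusted p = 0.371). The interval for Gstm1 was -0.14 to 1.05 (adjusted p = 0.547). The differences of Gsta2 and Gsta3 rest on male Hetz sums of 0 and 4 counts and are not given as a size. The sexes were counted in separate tables, so levels set side by side between them were not tested.

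The other transferases and related enzymes were described as a list of 21 genes, of which 20 were in the tables. Of 14 tested in females 3 were called, all higher in KO (Gsta1, Gstm4 and Gstp2), against 1.29% of all genes called higher. The median log2 fold change of the 14 was 0.09, beside 0.00 over all genes. Without Gsta1, which passed the filter through the KO libraries only, 2 of 13 were called, with a median of 0.08. Of 14 tested in males 1 was called higher, Gstp2, against 0.704% of all genes, with a median of 0.18, beside 0.01 over all genes. This list was chosen with earlier results of these data known, so its counts are descriptions. The theta, zeta and kappa class genes Gstt1, Gstz1 and Gstk1 were not called in either sex, with female log2 fold changes of -0.11, -0.03 and 0.08.

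The genes that supply glutathione and its reducing power were described as a list of 18, all tested. In females 6 were called higher in KO and none lower, against 1.29% and 0.983% of all genes. The median log2 fold change was 0.28, beside 0.00 over all genes. This list too was chosen with earlier results of these data known, so its counts are descriptions. The called genes with the smallest p were Slc7a11, the cystine importer (2.90, adjusted p = 0.000106), Pgd of the pentose phosphate pathway (1.71, adjusted p = 0.000455), Txnrd1, thioredoxin reductase (1.43, adjusted p = 0.00152), and Gsr, glutathione reductase (1.22, adjusted p = 0.00769). In males 1 of 18 was called higher, Slc7a11 (2.54, adjusted p = 0.0261), against 0.704% of all genes. The male median was 0.18, beside 0.01 over all genes. Slc7a11 stood at 282, 187 and 202 CPM in female KO, against 38.0, 18.2 and 33.7 CPM in female Hetz, and at 52.7, 76.2 and 29.5 CPM in male KO, against 9.39, 12.3 and 5.62 CPM in male Hetz, so the groups were apart in both sexes.

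Of 22 genes for the export of conjugates and their conversion to mercapturates, 16 could be tested in females, with a median of 0.23, beside 0.00 over all genes. Against 1.29% of all genes called higher, 3 of the 16 were called, all higher in KO. These were Abcc4, an efflux pump (3.73, adjusted p = 5.81e-06), Abcc1, the pump known for glutathione conjugates (1.09, adjusted p = 0.00453), and Ggt1, which splits the glutamyl residue from conjugates outside the cell (adjusted p = 0.00389). Ggt1 rested on 15, 22 and 18 counts in female KO libraries, against 0, 1 and 0 in female Hetz libraries, and passed the filter through the KO libraries only. Without it 2 of 15 were called in females, with a median of 0.17. In males 1 of 15 was called higher, Abcc4 (1.75, adjusted p = 0.000697), against 0.704% of all genes. Abcc4 had 13.9, 12.1 and 16.1 CPM in male KO, against 4.08, 4.21 and 4.19 CPM in male Hetz. Of 10 widely used NRF2 target genes, listed as a gauge, 8 were called higher in female KO (median 2.35), against 1.29% of all genes. In male KO 6 of the 10 were called higher (median 1.87), against 0.704% of all genes. Nqo1, a quinone reductase, was among them in both sexes (4.38, adjusted p = 2.58e-07, and 3.27, adjusted p = 1.15e-05). The export list and the gauge were chosen with earlier results of these data known. Their counts are descriptions and no independent measure of NRF2 activity. Of the 10 gauge genes Slc7a11, Txnrd1 and Gclm also stand in the list for glutathione supply. In males 4 were not called, with log2 fold changes of 0.44 for Txnrd1, 0.35 for Srxn1, -0.59 for Gclm and -1.47 for Hmox1, whose groups overlapped. The summed level of the 10, in which genes of high level weigh most, was 4420 to 5984 CPM in female KO, against 1705 to 2553 CPM in female Hetz. In males the sums overlapped, at 2814 to 4539 CPM in KO, against 2521 to 4827 CPM in Hetz.

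For each of the 4 transferases called in both sexes, the 2 genes with the most similar profile over the 12 libraries were listed, by the root mean square difference of log2 CPM after each gene's own mean was removed, among 13054 genes. Gsta4 was closest to the haem transporter Slc48a1 (0.396) and the biliverdin reductase Blvrb (0.421). Gstm1 was closest to Tkt, the transketolase of the pentose phosphate pathway (0.291), and to Txnrd1 (0.302). Gstp1 was closest to its copies Gstp-ps (0.249) and Gstp2 (0.278), with which it shares sequence. Mgst1 was closest to Ikbkg (0.240), a subunit of the kinase that activates NF-kB, and to the aldehyde oxidase Aox1 (0.284). These distances are descriptions over libraries that share preparation and genotype groups, and no test was made of them.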

How the data were processed

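Gene expression was measured in 12 libraries of satellite cells, 3 animals in each of 4 groups of sex and Keap1 genotype, as the labels give them. The labels' protocols name a column kit for the RNA, Smart-Seq2 for the amplified cDNA and a Tn5 kit for the libraries. Smart-Seq2 reads polyadenylated RNA and carries no molecular identifiers, so counting intervals and floors cover counting error only.

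Each deposited table gives, per the file headers, counts of whole fragments for Ensembl genes (featureCounts 2.0.0, exons, Ensembl release 99 of GRCm38), without regard to strand and without reads that map to several places or overlap several genes. Per the file headers these deposited values are not estimated counts, and none needed rounding. The exonic length used for FPKM is the one in the deposited tables. STAR, Subread, DESeq2 and mm10 are the tools and build listed per the submitters' processing notes, versions not given in the sources used here. There were 2 tables, females and males apart, of the same 55385 genes, of which 55144 matched a symbol and 31671 had a count. Columns of other samples numbered 0.

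CPM used TMM factors over all 12 libraries. Tests used edgeR 4.0.16 (R 4.3.3) with its quasi-likelihood F test (robust glmQLFit, TMM, filterByExpr at a minimum count of 10) and Benjamini-Hochberg adjustment over all genes tested, at a threshold of 0.05, within each sex from 6 libraries, and for the difference of the sexes from 1 fit of all 12. Means ± SD are over 3 animals, and intervals are 95%. Sharing of stretches of 50 and 100 bases was computed for the longest GENCODE M21 transcript of each gene against the transcripts of other genes. The scripts were tested on simulated counts. Alternatives were RLE normalization, DESeq2 1.42.0, voom of limma 3.58.1, no filter on low counts, a fit of all libraries, TPM in place of FPKM, and leaving out each animal in turn.

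The members and lists were chosen with earlier results of these data known. All 10 members and Keap1 are named always, of the other pathway lists at most 4 genes per comparison by smallest p among those called, of marker lists Pax7, Pdgfra, Pecam1, Ptprc and those called, and for each member called in both sexes the 2 most similar genes. Myf5, Nqo1 and the further genes of the mu cluster, the Gstp copies and the Gsta2 copies, with Gstt1, Gstz1, Gstk1 and the uncalled genes of the NRF2 gauge in males, were named beside this rule, after their values were seen. Genes said to pass the filter through the KO libraries only had under 10 counts in every Hetz library. Labels do not say that animals of a group came from different litters, so the p-values measure the spread between these animals.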

Additional observations from a re-analysis of the deposited data

Results flagged for a closer look

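Aldh3a1, an aldehyde dehydrogenase among the 10 genes of the NRF2 gauge, was the 1 gene of 14772 whose female and male changes differed in the test of the difference (edgeR, Benjamini-Hochberg adjusted p = 0.0319), by 2.51 on the log2 scale, with 249.1 ± 58.2 CPM in female KO and 11.5 ± 2.24 CPM in female Hetz, and 123 ± 29.4 CPM in male KO and 32.3 ± 9.65 CPM in male Hetz (SD, n = 3 each). That call was lost without female Hetz181, female KO188, male Hetz245 or male KO240, at adjusted p values of 0.0643 to 0.114, with log2 differences of 2.24 to 2.70 over all alternatives. None of the 10 transferases was among the genes so found.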

How the results depend on the processing

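The 6 female calls held under all 11 alternatives. The 5 male calls held under RLE normalization, DESeq2, voom, no filter and the fit of all libraries, while leaving out 1 animal gave 1 to 5 calls, with 1 without Hetz249, 2 without KO240, 3 without Hetz204 or Hetz245, and 5 without KO247 or KO255. For the difference of the sexes the count of transferases was 1 with DESeq2 (Gsta4, adjusted p = 0.0131) and 3 without the filter (Gsta4, Gstp1 and Gstm2), and 0 on leaving out any 1 animal. Over all genes, the female count of 319 was 723 with DESeq2, 1000 without the filter and 144 to 1479 on leaving out an animal, the highest without Hetz165. The male count of 115 was 280 with DESeq2, 375 without the filter and 41 to 294 on leaving out an animal. The count of 1 for the difference was 238 with DESeq2, 358 without the filter and 0 to 206 on leaving out an animal. Values of 2 uncalled genes changed sign. The female log2 fold change of Gstm5 was -0.02 without Hetz165 and without KO188, within -0.019 to 0.15 over the animals left out. The male value of Mgst3 was -0.16 without Hetz249, -0.09 without KO240 and -0.08 without KO247, within -0.16 to 0.23. The cause was not tested. Shares within a library are identical with FPKM and TPM by construction. Where an arm was left with 2 animals, the spread was pooled over both arms. Depth limits Gsta2 and Gsta3, whose Hetz sums were 0 to 5 counts. No paired analysis was possible because each animal number occurs in 1 group only.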
